A study of Mus musculus with 10 samples.

Results

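The IL-1 and IL-18 receptor family was followed in T helper 22 (Th22) cells, CD4+ T cells that make IL-22, grown in medium that contained IL-1 beta. The family was taken as 10 genes, matched by symbol in a deposited expression table of 23393 gene symbols: the receptors Il1r1, Il1r2, Il18r1, Il1rl1 and Il1rl2, the co-receptors Il1rap and Il18rap, the receptor antagonist Il1rn, the inhibitory receptor Sigirr and the adaptor Myd88. All 10 were found, and 9 of them were abundant enough to be tested among 10332 genes. Riok2hKO cells carried the genotype Riok2f/+ Vav1cre/+ Il22tdtomato/+ (5 libraries), in which Cre driven by Vav1 removes 1 copy of Riok2 in cells of the blood lineages. WT cells carried Riok2+/+ Vav1cre/+ Il22tdtomato/+ (5 libraries), so Vav1cre and the Il22 tdTomato reporter allele were present in both groups. The RIOK2 protein is a kinase of the RIO family that acts in the last steps of making the small subunit of the ribosome.

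Mice were C57BL/6 and 10 weeks old. Their naive splenic CD4+ T cells were stimulated through CD3e and CD28. The medium held IL-6 at 30 ng/mL, IL-23 and IL-1 beta each at 20 ng/mL, FICZ, which activates the aryl hydrocarbon receptor (AHR), at 400 nM, and antibodies against IL-4 and interferon gamma. RNA came from 5000 sorted cells per library that were CD4+ and positive for the reporter. Expression is given as TPM, a share of all transcripts that corrects for transcript length, so levels of different genes can be set side by side. Since the labels do not state that replicate libraries are from different mice or cultures, p-values cover the variation among the libraries alone, and this could be technical.

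IL-1 alpha and IL-1 beta bind IL1R1, which then recruits the co-receptor IL1RAP, and the paired cytoplasmic TIR domains call in MYD88, the IRAK kinases and TRAF6 to activate NF-kB and MAP kinases. IL1R2 binds IL-1 but lacks the signalling domain and acts as a decoy, and the antagonist IL-1Ra, encoded by Il1rn, occupies IL1R1 without recruiting IL1RAP. IL-18 signals through IL18R1 and IL18RAP, IL-33 through ST2 (Il1rl1) and the IL-36 cytokines through Il1rl2, both again with IL1RAP, while SIGIRR dampens signalling by the family. In T cells, IL-1 favours the Th17 and Th22 fates and IL-18 receptors are best known from Th1 cells.

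Riok2 measured 12.04 to 16.16 TPM in Riok2hKO libraries and 26.09 to 29.94 TPM in WT libraries (limma log2 fold change -1.01, SE 0.0754, adjusted p = 7.77e-06), with a ratio of means of 0.482. Library profiles correlated across genes with a Pearson r of 0.994 to 0.996 within Riok2hKO, 0.991 to 0.995 within WT and 0.983 to 0.993 between the groups. WT replicate 1 stood apart from its group: in it 122 tested genes were lower than the average of its group's other libraries by 1 log2 unit or more, against 6 to 20 genes in any other library. Values without it are given below beside the tested members and beside the other named genes whose call it changed. Of the 10332 genes tested, 17.1% changed at an adjusted p under 0.05 in limma, 9.58% rose and 7.55% fell, and in 8.72% every Riok2hKO library lay above every WT library. The number of reads behind a TPM is unknown.

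Of the 9 tested members, 3 rose in Riok2hKO cells (Il1rn, Il1r1 and Il18r1), 0 fell and 6 did not pass the test in limma. At an unadjusted p under 0.05, 5 were higher and 0 lower. The share of all tested genes at this unadjusted threshold is not given, here or for the lists below. The shares of 9.58% and 7.55% are for an adjusted p and are no background for it. Il1r1 reached the filter of 1 TPM through its Riok2hKO libraries, so its place in the count follows in part from the filter, and with a filter on a mean of at least 5 TPM the count that rose was 2. In the same 3 genes every Riok2hKO library lay above every WT library. The median log2 fold change of the 9 was 0.29, beside -0.0060 over all tested genes, where the 5th and 95th percentiles were -0.24 and 0.40. With no filter on low values, which brings in Il1rl1, the members' median was 0.16. Il1rl1 stayed below 1 TPM in all libraries and was not tested. In RNA of a whole sorted population, fewer cells that express a gene and less RNA of it per cell cannot be told apart. The sum of the 10 members was 235 to 262 TPM in Riok2hKO libraries and 217 to 239 TPM in WT libraries, and most of it was Sigirr and Myd88, with a mean share of 70.9% in Riok2hKO and 78.4% in WT.

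**Figure D1:**
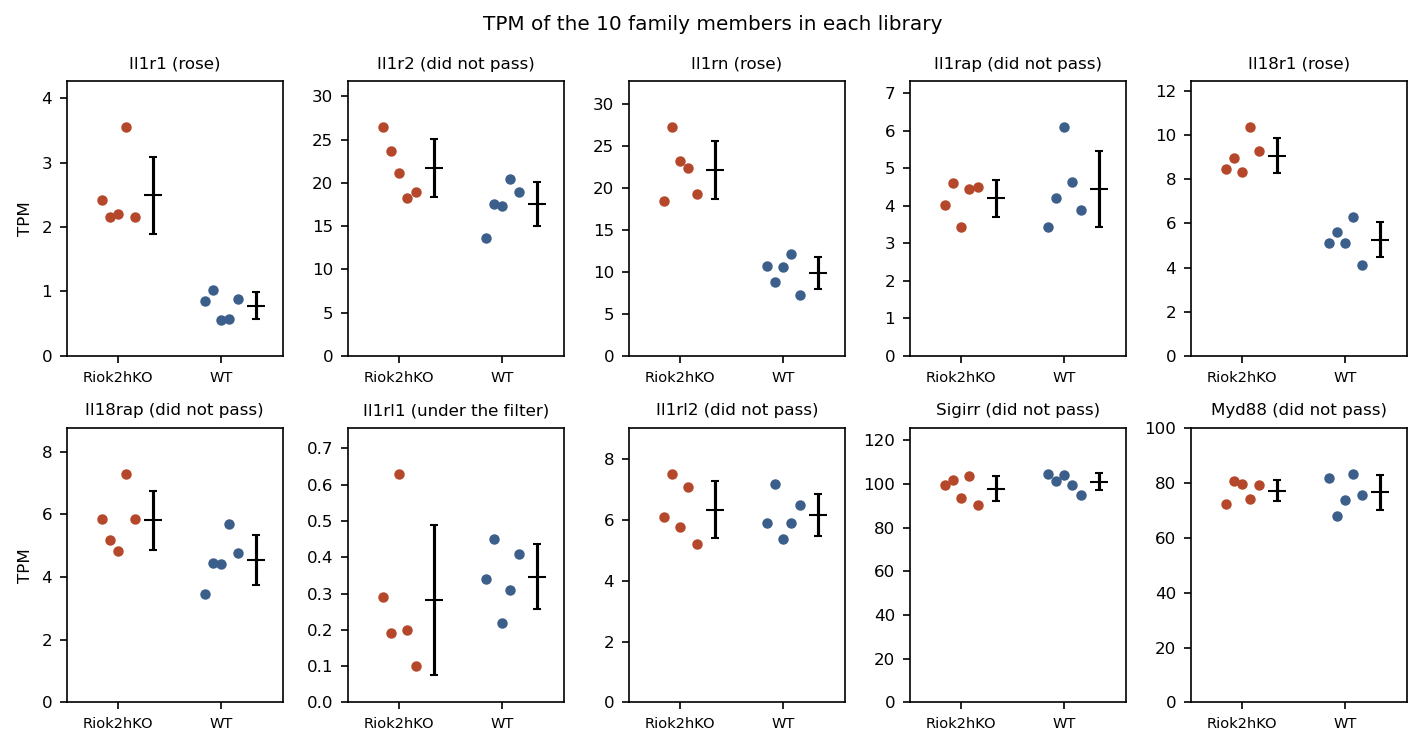
TPM of each of the 10 members (1 panel per gene, each with its own axis from 0) in Riok2hKO and WT libraries. Points are libraries and black marks are the mean with SD of 5. Il1rn, Il1r1 and Il18r1 show groups that do not overlap, with means of 22.2, 2.50 and 9.07 TPM in Riok2hKO and 9.91, 0.782 and 5.26 TPM in WT.

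Il1r1, the signalling receptor for the IL-1 beta in the medium, was the rarest of the tested members and rose. It measured 2.42, 2.15, 2.20, 3.55 and 2.16 TPM in Riok2hKO libraries, against 0.86, 1.03, 0.56, 0.57 and 0.89 TPM in WT libraries. The groups did not overlap, and Riok2hKO replicate 4 was the highest library. The mean was 2.50 ± 0.599 TPM in Riok2hKO and 0.782 ± 0.208 TPM in WT (SD, n = 5 each), a ratio of means of 3.19 (95% interval 2.20 to 4.62). On the log2(TPM + 1) scale the difference was 0.97 (SE 0.123, 95% interval 0.70 to 1.23, limma adjusted p = 0.000349). That scale understates changes of low genes, and with a pseudocount of 0.1 the difference was 1.56. Only 1 WT library reached 1 TPM, so the gene entered the test through the Riok2hKO libraries and had to differ to be tested. Without WT replicate 1 the difference was 0.98 (limma adjusted p = 0.000384). The gene spans mm10 chromosome 1, 40222480 to 40316201.

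RefSeq (GRCm38.p6) gives Il1r1 a pair of promoter windows, each of 250 bases before to 50 after a start, shown because the gene rose and the level of a whole gene does not say which start was used. Windows were searched on both strands for the AHR core GCGTG (found in 32.4% of 32851 mouse promoter windows), the ROR core AGGTCA (16.3%), the AP-1 motif TGANTCA (7.81%), the STAT motif TTCNNNGAA (8.30%) and the NF-kB form GGANTTTCC (1.25%). These factors were chosen because FICZ, IL-6, IL-23 and IL-1 act through AHR, STAT3 and NF-kB and because ROR factors and AP-1 mark these T cells. Ahr, the gene of AHR, measured 0.28 to 0.88 TPM in Riok2hKO libraries and 0.14 to 0.66 TPM in WT libraries and was not tested. Capitals mark matches. Window 1, chr1:40224830-40225129, + strand, holds 1 AHR core, and window 2, chr1:40266336-40266635, + strand, holds 2.
Il1r1 window 1: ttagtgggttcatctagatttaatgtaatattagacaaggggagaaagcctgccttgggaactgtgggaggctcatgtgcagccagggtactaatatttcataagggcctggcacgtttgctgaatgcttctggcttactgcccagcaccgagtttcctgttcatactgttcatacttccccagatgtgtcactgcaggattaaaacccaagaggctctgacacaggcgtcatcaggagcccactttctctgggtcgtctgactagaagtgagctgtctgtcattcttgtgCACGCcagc
Il1r1 window 2: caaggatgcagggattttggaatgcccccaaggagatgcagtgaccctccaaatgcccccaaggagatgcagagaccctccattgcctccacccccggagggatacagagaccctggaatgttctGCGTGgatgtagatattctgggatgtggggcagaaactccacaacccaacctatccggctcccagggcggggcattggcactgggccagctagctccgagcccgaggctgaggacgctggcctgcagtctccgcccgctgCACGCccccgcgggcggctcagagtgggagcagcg
The AHR core in window 1 begins at base 292, which is after the start, and those in window 2 begin at bases 126 and 266. The other 4 motifs were not found in these letters. A match is a description of the sequence and not a binding site.

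Il1rap, which completes the receptors for IL-1, IL-33 and IL-36, did not pass the test. It measured 4.03, 4.60, 3.43, 4.44 and 4.51 TPM in Riok2hKO libraries, against 3.43, 4.21, 6.10, 4.64 and 3.90 TPM in WT libraries. The groups overlapped throughout, with the highest value in WT replicate 3. The log2 fold change was -0.06 (95% interval -0.31 to 0.20, limma adjusted p = 0.793) and -0.13 without WT replicate 1, which did not pass either. With all libraries, a change of the size seen in Il1r1 lay outside the interval. The ratio of Il1r1 to Il1rap within a library was 0.467 to 0.800 in Riok2hKO, against 0.0918 to 0.251 in WT, with means of 0.598 ± 0.136 in Riok2hKO and 0.188 ± 0.0746 in WT. The signalling receptor was the scarcer of the pair in every library of both groups. The span of Il1rap (chromosome 16, 26581509 to 26730128) overlaps that of the lncRNA Gm20319, for which no TPM was given. Whether their exons overlap was not examined. Without strand, reads from shared exons could not be told apart.

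Il1r2, the decoy, exceeded Il1r1 in every library. It measured 26.42, 23.69, 21.18, 18.28 and 18.91 TPM in Riok2hKO libraries, against 13.63, 17.52, 17.36, 20.39 and 18.97 TPM in WT libraries. The groups overlapped, and WT replicate 1 had the lowest value. Mean levels were 21.7 ± 3.39 TPM in Riok2hKO and 17.6 ± 2.52 TPM in WT, and the log2 fold change of 0.29 did not pass (SE 0.113, limma adjusted p = 0.104). Its unadjusted 95% interval was 0.04 to 0.53. Without WT replicate 1 it was 0.20 (limma adjusted p = 0.176), and with a covariate for how many genes a library detected it was 0.41 and passed (limma adjusted p = 0.00803). Il1r1 per Il1r2 was 0.0908 to 0.194 in Riok2hKO libraries, against 0.0280 to 0.0631 in WT libraries, without overlap. Il1r2 (chromosome 1, 40084692 to 40125230) shares 1160 bases with the lncRNA Gm16894, which measured 0.498 TPM in Riok2hKO and 0.704 TPM in WT.

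Il1rn, which encodes the IL-1 receptor antagonist, rose. It measured 18.51, 27.27, 23.19, 22.45 and 19.33 TPM in Riok2hKO libraries, against 10.76, 8.77, 10.58, 12.11 and 7.32 TPM in WT libraries. No libraries of the groups overlapped, and the lowest Riok2hKO library stood above the highest WT library by more than the SD of either group. The mean was 22.2 ± 3.49 TPM in Riok2hKO and 9.91 ± 1.87 TPM in WT, a ratio of 2.24 (95% interval 1.73 to 2.89). The log2 fold change was 1.09 (SE 0.128, 95% interval 0.81 to 1.37, limma adjusted p = 0.000207), which placed it 44th of 10332 genes ordered by log2 fold change, where Il1r1 was 64th and Il18r1 166th. By the ratio of mean TPM, Il1r1 stood above Il1rn, so this order depends on the scale. Without WT replicate 1 it was 1.12 (limma adjusted p = 0.000143). The antagonist message outnumbered Il1r1 in every library, by 6.32 to 12.7 times in Riok2hKO and 8.22 to 21.2 times in WT, and these ranges overlapped. The gene lies on chromosome 2, 24336860 to 24351491.

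Il1rn is widely known as a product of myeloid cells, so the myeloid markers are given beside it. The 15 markers summed to 3.71 to 4.99 TPM in Riok2hKO libraries and 3.67 to 4.86 TPM in WT libraries. S100a8, S100a9 and Sfpi1 (the gene of PU.1) were at 0 in all libraries, and Cd68 was the most abundant of the list at 2.97 TPM. Lyz2, encoding lysozyme, averaged 0.020 TPM in Riok2hKO and was at 0 in WT. Which cells made the Il1rn RNA was not tested.

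Of the Il1rn promoter windows in RefSeq, the one at chr2:24336610-24336909, + strand, holds 3 matches, and the others, at the gene's later starts, hold none. It is shown for its AP-1 match, in which the AHR core of the opposite strand overlaps the last bases.
Il1rn window 1: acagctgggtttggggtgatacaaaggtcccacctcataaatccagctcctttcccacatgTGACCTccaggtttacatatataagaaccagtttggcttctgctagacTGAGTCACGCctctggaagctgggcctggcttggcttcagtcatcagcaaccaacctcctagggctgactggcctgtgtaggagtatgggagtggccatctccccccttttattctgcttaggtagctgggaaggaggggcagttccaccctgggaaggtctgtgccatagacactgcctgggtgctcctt
The ROR core begins at base 62, read on the opposite strand, the AP-1 motif at base 110 and the AHR core at base 115. The level of the whole gene again does not say which start was used.

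**Figure D2:**
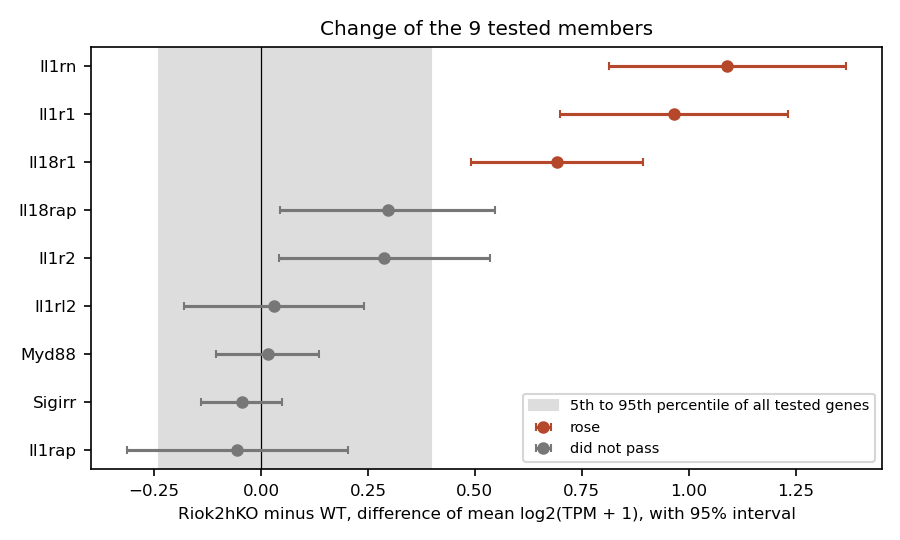
Difference of mean log2(TPM + 1) between Riok2hKO and WT for the 9 tested members, with 95% intervals from limma and the range from the 5th to the 95th percentile of all tested genes in grey. Il1rn (1.09), Il1r1 (0.97) and Il18r1 (0.69) lie outside that range, and the other 6 points lie inside it.

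Il18r1, the ligand-binding chain of the IL-18 receptor, rose. It measured 8.45, 8.94, 8.34, 10.35 and 9.27 TPM in Riok2hKO libraries, against 5.12, 5.63, 5.11, 6.30 and 4.13 TPM in WT libraries. The groups did not overlap. The mean was 9.07 ± 0.808 TPM in Riok2hKO and 5.26 ± 0.796 TPM in WT, a ratio of 1.72 (95% interval 1.43 to 2.08), and the log2 fold change was 0.69 (SE 0.0924, 95% interval 0.49 to 0.89, limma adjusted p = 0.000508). Without WT replicate 1 it was 0.69 (limma adjusted p = 0.000596). The gene spans chromosome 1, 40465552 to 40500854, and no IL-18 was listed among the culture's additions.

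Il18rap, the signalling partner of IL18R1, was higher on average but did not pass. It measured 5.84, 5.20, 4.84, 7.30 and 5.87 TPM in Riok2hKO libraries, against 3.45, 4.44, 4.42, 5.68 and 4.78 TPM in WT libraries. The lowest values of Riok2hKO fell within the WT range, and WT replicate 1 was the lowest library of all. The log2 fold change was 0.30 (SE 0.116, 95% interval 0.04 to 0.55, limma adjusted p = 0.101), 0.22 without WT replicate 1 (limma adjusted p = 0.185) and 0.37 without WT replicate 4, where it passed (limma adjusted p = 0.0499). Il18r1 per Il18rap was 1.42 to 1.72 in Riok2hKO libraries and 0.864 to 1.48 in WT libraries, which overlapped. The ratios were not tested.

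Il18r1 has 3 promoter windows in RefSeq, and the motifs were found in the third, chr1:40465756-40466055, + strand, which holds 2 STAT matches, at bases 32 and 99. It is shown because Il18r1 rose and IL-6 and IL-23 signal through STAT3. The Il18r1 windows 1 and 2, at starts further upstream, hold no match to the 5 motifs.
Il18r1 window 3: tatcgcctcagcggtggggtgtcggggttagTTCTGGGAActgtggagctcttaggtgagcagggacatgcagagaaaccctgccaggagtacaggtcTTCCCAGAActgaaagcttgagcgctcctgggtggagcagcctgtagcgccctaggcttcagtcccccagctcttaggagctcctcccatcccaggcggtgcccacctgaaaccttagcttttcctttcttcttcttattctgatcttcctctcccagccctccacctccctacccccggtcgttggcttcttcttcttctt
Across the 9 members with a window in RefSeq, 15 windows were searched. The STAT motif was also found in Il1r2 and Myd88, which did not pass the test, and the AHR core in Il1r2, Il1rl1 and Il1rap. The NF-kB form was found in 1 window each of Il1rl2, Il1rl1, Il18rap and Myd88 and the ROR core in 1 window of Il1rl1, none of which rose.

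**Figure D3:**
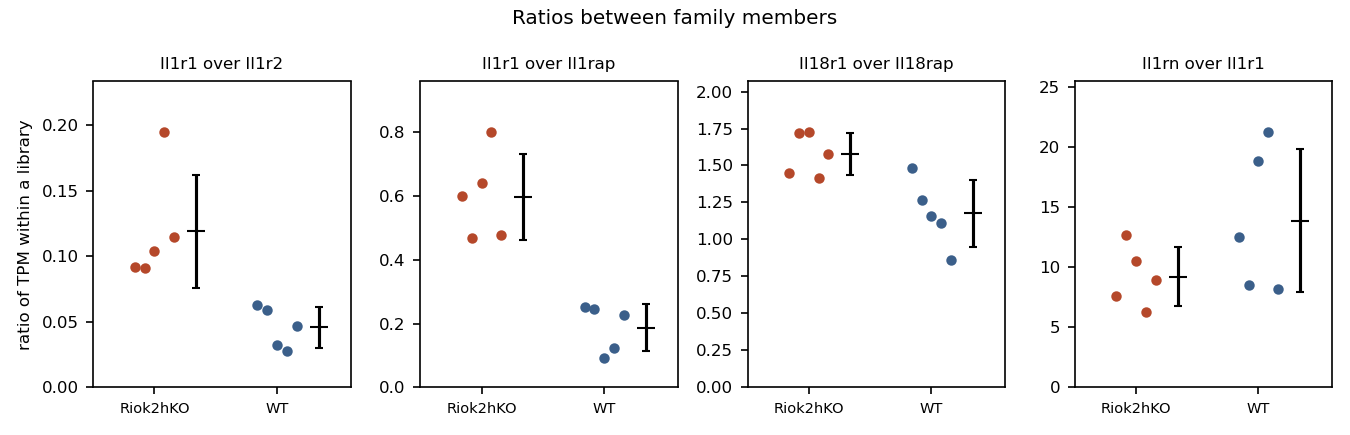
Ratios of TPM between members within each library, for Riok2hKO and WT, with the mean and SD of 5 in black. The ratios of Il1r1 to Il1r2 and to Il1rap separate the groups, with Riok2hKO means of 0.119 and 0.598 and WT means of 0.0458 and 0.188, and the ratios of Il18r1 to Il18rap and of Il1rn to Il1r1 overlap.

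The receptors for IL-33 and IL-36 and the shared adaptor were not called. Il1rl1, encoding the IL-33 receptor ST2, is known from Th2 cells, regulatory T cells and mast cells, and was near the floor of the table with 0.29, 0.19, 0.63, 0.20 and 0.10 TPM in Riok2hKO libraries, against 0.34, 0.45, 0.22, 0.31 and 0.41 TPM in WT libraries. With no filter on low values its log2 fold change was -0.08 (limma adjusted p = 0.676). Il1rl2, encoding the IL-36 receptor, measured 6.11, 7.53, 5.78, 7.10 and 5.23 TPM in Riok2hKO libraries, against 5.92, 7.19, 5.38, 5.90 and 6.51 TPM in WT libraries. The groups overlapped, and its log2 fold change was 0.03 (95% interval -0.18 to 0.24, limma adjusted p = 0.870), and 0.017 without WT replicate 1. Il1rl1 lies at chromosome 1, 40404864 to 40465418, and Il1rl2 at 40324589 to 40367555 on the same chromosome, where it overlaps the pseudogene Gm17970.

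Sigirr and Myd88 were the most abundant members in both groups. Sigirr, the inhibitory receptor, measured 99.78, 101.94, 93.61, 103.80 and 90.32 TPM in Riok2hKO libraries, against 104.71, 101.27, 104.26, 99.66 and 95.01 TPM in WT libraries. The ranges overlapped, and the log2 fold change was -0.05 (SE 0.0439, 95% interval -0.14 to 0.05, limma adjusted p = 0.522), and -0.032 without WT replicate 1. Myd88, the adaptor that links the receptors to the IRAK kinases, measured 72.32, 80.55, 79.65, 74.23 and 79.27 TPM in Riok2hKO libraries, against 81.82, 67.92, 73.94, 83.34 and 75.52 TPM in WT libraries. Its log2 fold change was 0.02 (SE 0.0556, 95% interval -0.11 to 0.14, limma adjusted p = 0.880), and 0.040 without WT replicate 1. Sigirr lies on chromosome 7, 141091175 to 141100597, and Myd88 on chromosome 9, 119335934 to 119340018.

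In order of mean level, Sigirr and Myd88 were followed in Riok2hKO by Il1rn and Il1r2, whose ranges overlapped, and then by Il18r1. Next came Il1rl2 and Il18rap, which overlapped, then Il1rap and Il1r1, which also overlapped, and last Il1rl1. In WT the order after Myd88 was Il1r2, Il1rn, Il1rl2, Il18r1, Il18rap, Il1rap, Il1r1 and Il1rl1. There Il1rl2, Il18r1, Il18rap and Il1rap each overlapped their neighbour in the order. Il1rn per Il1r2 was 0.701 to 1.23 in Riok2hKO libraries, against 0.386 to 0.789 in WT libraries, which overlapped.

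In the mouse genome 6 of the receptor genes stand in a row on chromosome 1 in the order Il1r2, Il1r1, Il1rl2, Il1rl1, Il18r1 and Il18rap, over 467 kb (40084692 to 40551707). Within that row the 2 genes that rose, Il1r1 and Il18r1, were not next to each other. Between them, Il1rl2 had a log2 fold change of 0.03 and Il1rl1 was below 1 TPM. On one side of the row, Map4k4, a kinase gene, measured 9.55 ± 1.06 TPM in Riok2hKO and 8.23 ± 0.692 TPM in WT (limma adjusted p = 0.123). On the other side, Slc9a4 was at 0 in all libraries. Of 16 listed genes around the row, 6 were tested, 1 rose and 0 fell in limma, where 9.58% of all tested genes rose and 7.55% fell. At an unadjusted p under 0.05, for which no share over all genes is given, 4 of them were higher and 2 lower. Their median log2 fold change was 0.19. The 1 that rose was Tgfbrap1 (3.32 ± 0.331 TPM in Riok2hKO and 2.57 ± 0.317 TPM in WT, limma log2 fold change 0.28, adjusted p = 0.0422). It lost its call in 12 of 22 alternatives, among them the fits without WT replicate 1, 4 or 5 or without Riok2hKO replicate 2, 3, 4 or 5 (limma adjusted p = 0.0570 to 0.0940).

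**Figure D4:**
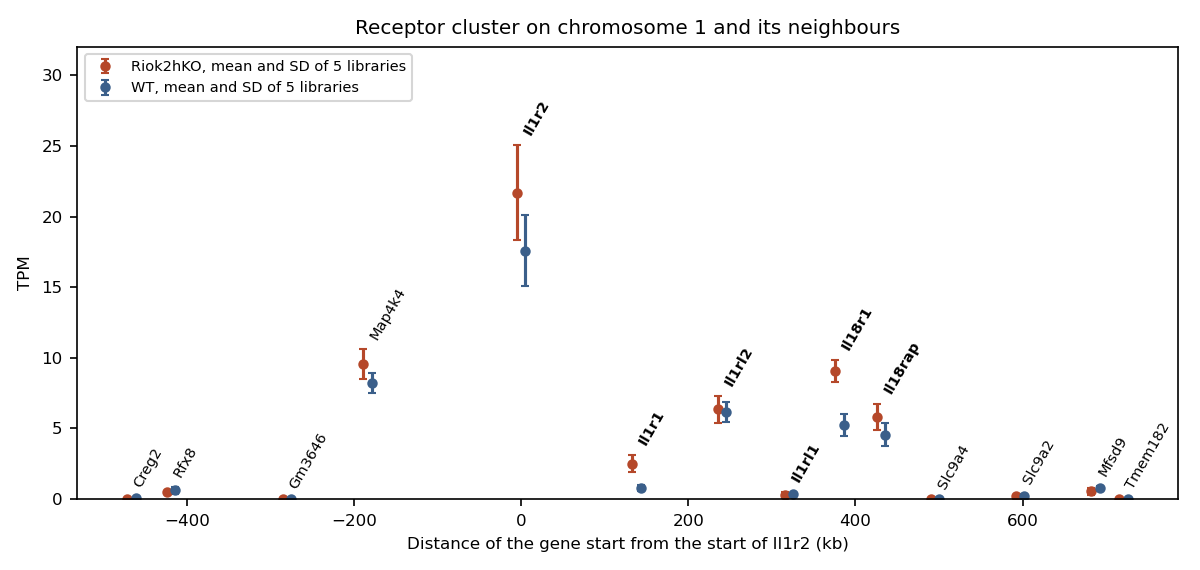
Mean TPM with SD of the chromosome 1 receptor genes and their neighbours in Riok2hKO and WT (5 libraries each), against the distance of each gene's start from that of Il1r2 in kb. Il1r1 and Il18r1, with means of 2.50 and 9.07 TPM in Riok2hKO and 0.782 and 5.26 TPM in WT, rose within the row, and Il1rl2 between them had 6.35 TPM in Riok2hKO and 6.18 TPM in WT.

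Of the family's own ligands, Il1a and Il33 were tested and the others found were under the filter. Of 10 ligand and inhibitor genes in the table, 3 were tested, 0 rose and 0 fell, where 9.58% of all tested genes rose and 7.55% fell. The median log2 fold change of the 3 was 0.07. At an unadjusted p under 0.05 in limma, 1 was higher, Il1a, and 0 were lower. Il1b was at 0 in all libraries. Il1a, which encodes IL-1 alpha, measured 17.14 to 25.36 TPM in Riok2hKO libraries and 14.35 to 17.95 TPM in WT libraries, which overlapped (limma log2 fold change 0.29, adjusted p = 0.0777). It passed without WT replicate 1 (limma adjusted p = 0.0490). Il33, the ligand of ST2, measured 11.0 ± 1.48 TPM in Riok2hKO and 10.6 ± 2.16 TPM in WT (limma adjusted p = 0.798). Il18bp, whose product binds IL-18, measured 1.67 ± 0.252 and 1.58 ± 0.555 TPM in Riok2hKO and WT (limma adjusted p = 0.770), and Il18 averaged 0.530 TPM in Riok2hKO and 0.438 TPM in WT, too low for the test.

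Of the caspase-1 inflammasome genes, which process IL-1 beta and IL-18, 8 of 13 were tested, 0 rose and 1 fell in limma. Over all tested genes 9.58% rose and 7.55% fell. At an unadjusted p under 0.05, 1 of the list was higher and 1 lower. Pycard, encoding the adaptor ASC, fell to 97.0 ± 5.64 TPM in Riok2hKO, against 124 ± 4.60 TPM in WT (limma log2 fold change -0.35, adjusted p = 0.000275). Casp1 measured 19.5 ± 3.76 TPM in Riok2hKO and 17.0 ± 5.18 TPM in WT (limma adjusted p = 0.449). Nek7, an activator of NLRP3, measured 13.8 ± 0.485 and 11.3 ± 2.17 TPM in Riok2hKO and WT (limma log2 fold change 0.29, adjusted p = 0.101). Without WT replicate 1 the difference in Nek7 was 0.16 (limma adjusted p = 0.0633), and with the covariate for detected genes it was 0.40 and passed (limma adjusted p = 0.0115). That of Casp1 was 0.22, and 0.34 without WT replicate 1 (limma adjusted p = 0.178). The median of the list was 0.03.

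Downstream of the receptors, 54 of 58 listed genes were tested, 13 rose, 6 fell and 35 did not pass, with a median log2 fold change of 0.07. Rises made up 13 of 54, where 9.58% of all genes rose, and falls 6 of 54, where 7.55% of all genes fell. No test was made of these differences. Without Riok2hKO replicate 4 the count that rose was 8. Traf6, the ubiquitin ligase that passes the signal on from the IRAK kinases, rose to 16.2 ± 0.872 TPM in Riok2hKO, against 12.5 ± 0.417 TPM in WT (limma log2 fold change 0.35, SE 0.0502, adjusted p = 0.000804). Nfkbia, encoding the inhibitor IkB alpha, measured 733 ± 14.6 TPM in Riok2hKO and 635 ± 33.5 TPM in WT (limma log2 fold change 0.21, adjusted p = 0.00169). Tnfaip3, encoding the ubiquitin-editing enzyme A20, measured 28.3 ± 1.54 TPM in Riok2hKO and 22.1 ± 1.96 TPM in WT (limma log2 fold change 0.34, adjusted p = 0.00364). Tnip1, which binds A20, measured 56.5 ± 2.93 TPM in Riok2hKO and 45.5 ± 4.50 TPM in WT (limma log2 fold change 0.31, adjusted p = 0.00783).

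Among kinases that activate p38, Map2k6 and Map2k3 fell, and Map2k4, picked after its values were seen, rose. Map2k6 fell to 4.84 ± 0.541 TPM in Riok2hKO, against 7.43 ± 0.638 TPM in WT (limma log2 fold change -0.53, adjusted p = 0.00118), and Map2k3 fell to 206 ± 6.90 TPM in Riok2hKO, against 231 ± 9.99 TPM in WT (limma log2 fold change -0.17, adjusted p = 0.00732). Map2k4, which activates JNK and p38, rose to 18.7 ± 1.37 TPM in Riok2hKO, against 14.7 ± 2.28 TPM in WT (limma log2 fold change 0.34, adjusted p = 0.0287). With no filter on low values Map2k4 did not pass (limma adjusted p = 0.0660). Around the receptor complex, 2 genes picked after their values were seen moved in opposite directions. Irak2, a kinase of the MYD88 complex, fell to 23.1 ± 1.29 TPM in Riok2hKO, against 27.6 ± 1.70 TPM in WT (limma log2 fold change -0.24, adjusted p = 0.00964), and Tab2, an adaptor of the kinase TAK1, rose to 14.9 ± 0.785 TPM in Riok2hKO, against 12.2 ± 0.965 TPM in WT (limma log2 fold change 0.26, adjusted p = 0.0127). Irak1 (limma adjusted p = 0.442) and Map3k7, the gene of TAK1 (0.308), did not pass. Rela, the p65 subunit of NF-kB, measured 83.1 ± 2.60 TPM in Riok2hKO and 69.3 ± 12.6 TPM in WT (limma log2 fold change 0.28, adjusted p = 0.103). Its WT spread came largely from WT replicate 1 at 47.8 TPM, and without that library its log2 fold change was 0.15 (limma adjusted p = 0.0284). The others that rose were Chuk, Cyld, Map3k8, Mapkapk2, Pik3r1, Rc3h1 and Ube2d3, and the others that fell were Nfkb1, Nfkb2 and Nfkbib.

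**Figure D5:**
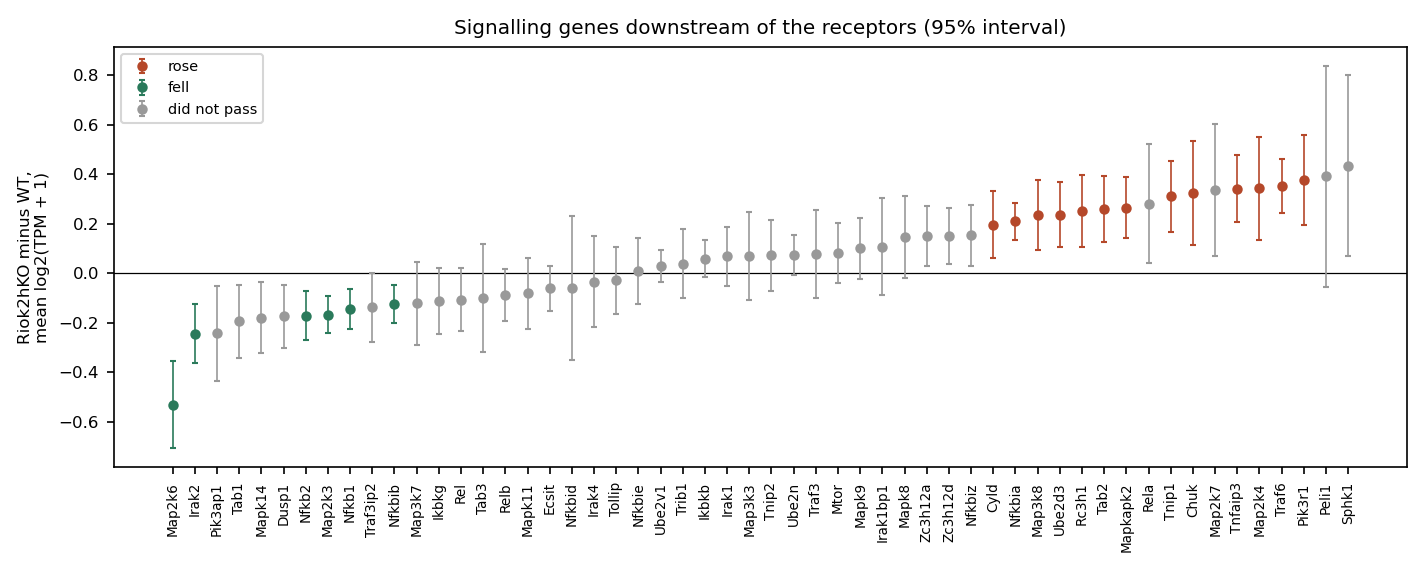
Difference of mean log2(TPM + 1) between Riok2hKO and WT, with 95% intervals from limma, for the 54 tested signalling genes in order of size. The 13 that rose are red, the 6 that fell are green and the 35 that did not pass are grey. Map2k6 lies lowest at -0.53.

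Toll-like receptors use the same adaptor. Of 22 listed receptors, adaptors and chaperones, 13 were under the filter, 9 were tested, 2 rose and 0 fell in limma. Over all tested genes 9.58% rose and 7.55% fell. At an unadjusted p under 0.05, 2 of the list were higher and 2 lower, and its median log2 fold change was -0.08. Hsp90b1, the chaperone of these receptors, measured 405 ± 10.4 TPM in Riok2hKO and 358 ± 13.3 TPM in WT (limma log2 fold change 0.17, adjusted p = 0.00238). Tirap, an adaptor beside MYD88, measured 5.98 ± 0.354 TPM in Riok2hKO and 4.86 ± 0.263 TPM in WT (limma log2 fold change 0.25, adjusted p = 0.0165).

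Markers of other cells and of T cell states were read beside the members. The 10 CD4 T cell markers summed to 2743 to 2784 TPM in Riok2hKO libraries and 2742 to 2802 TPM in WT libraries. Within that sum Cd28 and Cd2 rose (limma log2 fold changes 0.31 and 0.38), Cd3d, Cd3g and Lck fell (-0.20, -0.21 and -0.13), and 5 did not pass. Cd8a was at or below 0.270 TPM in Riok2hKO and 0.480 TPM in WT, while Cd8b1 measured 11.3 to 14.58 TPM in Riok2hKO and 17.11 to 19.35 TPM in WT and fell. B cell markers summed to 1.22 to 2.35 TPM in Riok2hKO and 1.75 to 3.09 TPM in WT, mast cell and basophil markers to 0.530 to 0.780 TPM in Riok2hKO and 0.550 to 0.780 TPM in WT, with Cpa3 and Mcpt8 at 0, and NK cell markers to 0.370 to 1.15 TPM in Riok2hKO and 0.610 to 1.63 TPM in WT, with Klra8 at 0. All 4 lists of T cell states had higher sums in Riok2hKO, without overlap between the groups. The 8 genes of the Th17 and Th22 list summed to 1251 to 1695 TPM in Riok2hKO and 387 to 496 TPM in WT, and 7 of 7 tested rose, Il22 to 316 ± 33.8 TPM in Riok2hKO, against 59.2 ± 12.6 TPM in WT. The Th1 list summed to 107 to 132 TPM in Riok2hKO and 87.6 to 96.3 TPM in WT. In it Il12rb2 and Cxcr3 rose, while Tbx21 and Ifng did not pass (limma log2 fold changes -0.11 and -0.02). The Th2 list summed to 87.1 to 98.7 TPM in Riok2hKO and 73.8 to 83.6 TPM in WT, where Ccr4 rose, Gata3 fell and Il13 did not pass. The regulatory T cell list summed to 685 to 784 TPM in Riok2hKO and 575 to 647 TPM in WT. There Il2ra rose to a mean of 302 TPM in Riok2hKO, against 180 TPM in WT, while Ikzf2, Ctla4, Tnfrsf18 and Lrrc32 did not pass. Foxp3 averaged 0.986 TPM in Riok2hKO and 0.796 TPM in WT. The part of these states in the rise of Il1r1, Il1rn and Il18r1 was not tested.

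Over the 10 libraries Il1rn and Il18r1 had the most similar profiles of the members (Pearson r of log2(TPM + 1) 0.94), followed by Il1r1 with Il18r1 (0.89) and Il1r1 with Il1rn (0.83). These values hold the difference between the genotypes. After centring within genotype they were 0.54, 0.14 and -0.35. The 5 tested genes most like Il1r1 over the 10 libraries were Tet2 (r = 0.987), Timp1 (0.984), Plac8 (0.983), Ccdc71l (0.972) and Batf3 (0.972). Those most like Il1rn were Tex2 (0.977), Nudt9 (0.967), Ccr4 (0.964), Golga3 (0.959) and Kif3a (0.956), and those most like Il18r1 were Glipr2 (0.975), Igfbp4 (0.974), Satb1 (0.968), Gadd45g (0.965) and Cyb5 (0.963). After centring within genotype, the genes most like Il1r1 included Lum (0.975), Tet2 (0.927), Egfr (0.892) and Mll3 (0.891). The values of Egfr and Mll3 rest partly on Riok2hKO replicate 4, without which they were 0.750 and 0.764. The centred profiles most like Il1rn were those of Lcat (0.968), Spryd4 (0.934), Sec22a (0.923), Tex2 (0.914) and Znf512b (0.907), and those most like Il18r1 were those of Fibp (0.949), Ssbp2 (0.910), Fam69b (0.902), Zfp275 (0.892) and Usp53 (0.884). All are descriptions over 10 libraries chosen from 10332 genes.

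Of the 9 tested members, 7 had a longest transcript below the median GC content of the tested genes (49.4%). The longest transcript of Il1r1 had 43.9% GC over 5819 nucleotides, that of Il1rn 41.6% over 2554 and that of Il18r1 44.0% over 4158, beside a median length of 3238. Of the members that did not pass, Il1rap (42.1%), Il18rap (45.1%), Il1rl2 (46.5%) and Il1r2 (49.0%) were also below the median GC content, and Sigirr (57.2%) and Myd88 (53.5%) were above it. With a trend on GC content and length removed, the same 3 members rose.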

How the data were processed

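The deposited values are TPM, a unit the authors obtained by aligning 38-nucleotide read pairs from SMART-seq2 libraries (10 PCR cycles, no strand information) to mm10 with Bowtie (version not given in the sources used here) and quantifying with RSEM, as the labels' protocols state. RSEM 1.2.8 and mm10 are named in the submitters' processing notes. TPM keeps no depth, and RSEM splits shared reads between genes by estimation. Of 23420 rows, 27 with calendar dates in place of symbols were left out (0.107% to 0.114% of a library).

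Values were tested as log2(TPM + 1) in limma 3.58.1 (R 4.3.3; lmFit, eBayes with a variance trend), for genes that reached 1 TPM in 5 or more of the 10 libraries, with Benjamini-Hochberg adjustment over all of them and a threshold of 0.05. As a check of the code, the test was also run on simulated data with planted changes. These took their means and spreads from these libraries, with noise independent between libraries. That run does not bear on the results given here. Intervals of ratios of means were taken on the log scale from the standard errors of both means, with unequal variances. Gene positions are those of RefSeq, on the files' build, and transcript GC content and length are from GENCODE vM21.

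Named are the members, Riok2 and Il22, up to 6 called genes per list by smallest p and up to 3 others that describe the pathway, the neighbours of the row, and the 5 genes most like each called member. A gene that this rule takes is not reported here. Irak2, Tab2, Map2k4, the genes given only as names in a count and the other genes of the marker lists lie outside this rule. They were named after their values were seen. Members and lists were chosen with earlier results of these data known. Alternatives covered pseudocount, filter, scaling, variance model, array weights, a covariate, the replicate block and each library left out; removal of a GC and length trend was chosen after seeing the data. Python 3.11.15 and matplotlib 3.10.9 drew the figures.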

Additional observations from a re-analysis of the deposited data

Results flagged for a closer look

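Il1r1 measured 3.55 TPM in Riok2hKO replicate 4, against 2.15 to 2.42 TPM in the other 4 Riok2hKO libraries. Its gap to the nearest library was 0.807 of the group's range, above Dixon's 95% critical value for 5 samples. Among 20 groups of 5 libraries examined (10 members in both genotypes) this was the 1 so marked, and chance marks about 1 in 20. Without that library the log2 fold change of Il1r1 was 0.87 (limma adjusted p = 0.000597).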

How the results depend on the processing

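Over 23 alternatives (10 of them leaving out 1 library), Il1rn and Il18r1 kept their direction and call in each and Il1r1 in each of the 22 in which it was tested. The log2 fold change of Il1r1 was 0.87 to 1.56, that of Il1rn 1.00 to 1.16 and that of Il18r1 0.62 to 0.78, with limma adjusted p-values of at most 0.00367, 0.00131 and 0.00243. The count of members that rose was 2 with a mean of at least 5 TPM (Il1r1 not tested) and at most 4, and 0 fell. Over all genes 670 to 1106 rose and 529 to 951 fell. With a library left out, values near 0 changed sign: Il1rap ranged from -0.126 (without WT replicate 1) to 0.045 (without WT replicate 3), Il1rl2 from -0.027 to 0.087, Myd88 from -0.026 to 0.047, Il33 from -0.058 to 0.14 and Il18bp from -0.027 to 0.16. Il1rl2 was -0.013 with quantile normalization. The causes were not tested. Of the ligands, 1 rose with the GC and length trend removed (0 as reported), and 0 to 1 with a library left out. Of the signalling genes, 8 rose with no filter on low values (13 as reported), and 8 to 14 with a library left out. Of the Toll-like receptor list, 2 fell with quantile normalization (0 as reported), and 0 to 1 with a library left out. Among the genes beside the receptor row, 0 rose (1 as reported) with the GC and length trend removed, a mean of at least 5 TPM, no filter, a covariate for detected genes or quantile normalization, and 0 to 2 with a library left out; 1 fell (0 as reported) with array weights, the covariate or quantile normalization, and 0 to 1 with a library left out. Of the inflammasome genes, 1 rose and 2 fell with the covariate (0 and 1 as reported). Same-numbered libraries did not deviate together (r = 0.068, 0.0084, -0.034, -0.011 and -0.021, and 1 of 5 Riok2hKO libraries correlated best with its own number). No pairing by number was seen in these values, which cannot show that there was none. With the replicate block 880 genes rose and 564 fell (990 and 780 without it), and the same 3 members rose; 1 ligand rose (Il1a, limma adjusted p = 0.0293), 1 Toll-like receptor gene rose (Tirap had a limma adjusted p of 0.0546) and 1 fell, and 0 neighbours rose.

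The files hold no read counts, so counting error of low members such as Il1r1 and Il1rl1 cannot be given.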
